A study of Mus musculus with 6 samples.

Results

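The genes that encode the chains of the collagens were compared between 2 regions of the mouse embryonic lung, a branching and a non-branching one. The members were all probe sets whose annotation gives a single gene symbol made of Col, a number, the letter a and a number. This rule found 44 probe sets for 31 genes among 12422 probe sets without controls, and 29 of the 31 genes (40 of the 44 probe sets) were bright enough to be tested among 9316 probe sets. RNA came from lungs dissected at embryonic day E11.5. The branching samples (3 arrays) hold tissue of both the right and the left lung, and the non-branching samples (3 arrays) hold the 2 main bronchi and a piece of the trachea. The labels name no strain, genotype or treatment, and they do not say whether the replicates were separate embryos or litters, so the p-values speak of the spread among these arrays alone, which may be technical.

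A collagen molecule is built of chains that wind into a triple helix, some from copies of a single chain and some from different chains encoded by separate genes. Fibrillar collagens (types I, II, III, V and XI) form the fibres that give tissue its tensile strength, and FACIT collagens such as type IX sit on the surface of such fibres. Type IV collagen forms the network of the basement membrane under epithelia and around vessels, type VI forms beaded microfilaments in the interstitium, and the short-chain type VIII is known from vessel walls. In the early lung, type I and III collagens are known as products of the mesenchyme, while type II collagen marks the cartilage that later supports the trachea and main bronchi.

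Some classes of collagen genes held members that were lower in the branching region, chiefly fibrillar, microfibrillar and FACIT genes, and others held none. By probe set, 10 of 40 fell, against 1.13% of all probe sets tested, and none rose, against 0.902%. Of the 29 genes tested, each read by its brightest probe set, 9 fell in branching (31%), none rose and 20 did not pass, at an adjusted p under 0.05 in limma's moderated test with Benjamini-Hochberg adjustment over all probe sets. Among all 6798 genes tested, 1.32% fell and 1.0% rose. At an unadjusted p under 0.05, 12 collagen genes were lower, against 8.43% of all genes tested, and 1 was higher. The median log2 difference (branching minus non-branching) was -0.35 for the collagen genes and -0.01 for all genes tested, and 21 of 29 collagen genes had a negative difference, against 51.0% of all genes. The 3 branching values lay below the 3 non-branching values for 11 of the 29 genes, against 11.7% of all genes, and above them for 2, against 10.2%. The mean was at least 2-fold lower in branching for 5 of 29 genes, against 3.87% of all genes, of which 4 passed the test and Col6a3 did not. As the samples are bulk tissue, fewer cells of a type and less RNA per cell cannot be told apart. The count of collagen genes that fell was 5 when branching replicate 3 was left out, 4 for non-branching replicate 1, 3 for non-branching replicate 2 and 3 for non-branching replicate 3. With no variance trend in the fit, limma called 0 of them (11 lower and 1 higher at an unadjusted p under 0.05), with adjusted p from 0.069 to 0.25 for the called probe sets. The shares of all genes higher at that unadjusted p, or lower or higher without the trend, are not given here.

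**Figure D1:**
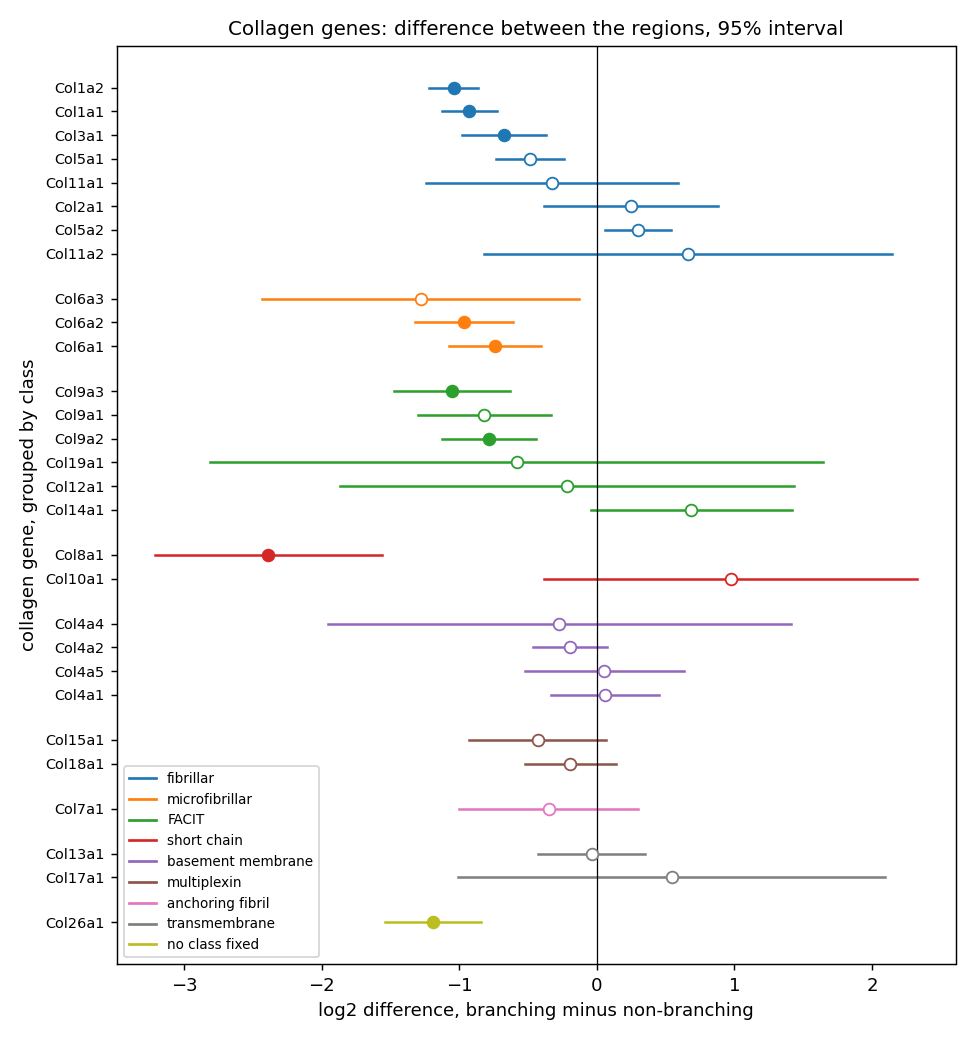
The horizontal axis is the log2 difference, branching minus non-branching, of each of the 29 tested collagen genes, grouped by class on the vertical axis. Points are the differences, lines their 95% intervals from the limma fit on 3 arrays per region, and filled points passed the test. All filled points lie left of 0, among the fibrillar, microfibrillar, FACIT and short-chain genes and Col26a1, while the 4 basement membrane genes have intervals that include 0.

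The arrays had similar levels, with array medians from 212 to 229 signal units. The signal is a linear intensity, and 147 is taken here as the background level, the 95th percentile of the 114 signals given by bacterial and yeast control probe sets. The 3' actin control probe set exceeded the 5' one by log2 values of 0.20 to 0.46 in branching and 0.28 to 0.75 in non-branching, highest on non-branching replicate 3. The median control signal was highest on non-branching replicate 2, at 78.8, the other arrays reading 19.8 to 40.7. The part of these differences in the results was not tested. Of 9 epithelial marker genes 7 were above background on all 6 arrays, among them Cdh1 and Krt8, while Epcam was above it on 0 branching arrays and 1 non-branching array and Krt19 on 1 and 0. Of 6 lung mesenchyme markers 4 were above background on all 6 arrays, while Foxf1 was above it on 3 branching and 2 non-branching arrays and Vim on 1 and 3.

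The sequences just upstream of the start are shown for the genes that fell and that have an entry in the table of RefSeq promoters. Among the 9 genes that fell these are 6, and 22 of all 31 collagen genes matched. Each line gives the 250 bases before the annotated start in GRCm38.p6, on the strand of the gene. The regions are chr6:4505368-4505617 for Col1a2 and chr1:45311288-45311537 for Col3a1, both on the plus strand, chr10:76726045-76726294 for Col6a1 and chr10:76623631-76623880 for the outer of 2 starts of Col6a2, both on the minus strand, chr4:121039316-121039565 for Col9a2 on the plus strand, and chr16:57754738-57754987 for Col8a1 on the minus strand. Capitals mark matches to the CCAAT box (CCAAT or, on the other strand, ATTGG), the GC box (GGGCGG or CCGCCC) and a TATA element (TATAA or TTATA).
Col1a2: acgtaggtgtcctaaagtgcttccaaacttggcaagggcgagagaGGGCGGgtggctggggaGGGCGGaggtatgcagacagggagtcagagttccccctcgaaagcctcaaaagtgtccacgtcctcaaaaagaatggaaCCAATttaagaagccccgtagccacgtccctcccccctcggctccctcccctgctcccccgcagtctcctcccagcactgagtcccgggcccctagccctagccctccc
Col3a1: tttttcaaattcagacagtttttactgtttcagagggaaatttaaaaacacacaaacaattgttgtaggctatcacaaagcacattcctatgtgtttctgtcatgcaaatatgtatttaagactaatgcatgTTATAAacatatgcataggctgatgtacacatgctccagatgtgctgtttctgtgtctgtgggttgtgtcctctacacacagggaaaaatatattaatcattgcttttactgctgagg
Col6a1: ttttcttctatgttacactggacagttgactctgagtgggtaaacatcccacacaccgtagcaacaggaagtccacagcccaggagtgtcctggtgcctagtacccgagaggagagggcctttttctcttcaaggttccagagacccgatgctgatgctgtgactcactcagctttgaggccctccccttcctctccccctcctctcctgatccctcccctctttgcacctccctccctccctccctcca
Col6a2: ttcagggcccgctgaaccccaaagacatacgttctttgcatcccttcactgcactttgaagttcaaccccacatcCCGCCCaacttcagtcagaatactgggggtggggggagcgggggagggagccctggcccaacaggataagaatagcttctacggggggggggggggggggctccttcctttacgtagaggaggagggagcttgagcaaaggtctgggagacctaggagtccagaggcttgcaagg
Col9a2: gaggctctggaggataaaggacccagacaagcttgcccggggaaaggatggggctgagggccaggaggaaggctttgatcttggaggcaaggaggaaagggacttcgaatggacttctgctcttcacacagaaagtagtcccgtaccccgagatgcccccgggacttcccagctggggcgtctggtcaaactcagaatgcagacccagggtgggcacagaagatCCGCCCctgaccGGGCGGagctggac
Col8a1: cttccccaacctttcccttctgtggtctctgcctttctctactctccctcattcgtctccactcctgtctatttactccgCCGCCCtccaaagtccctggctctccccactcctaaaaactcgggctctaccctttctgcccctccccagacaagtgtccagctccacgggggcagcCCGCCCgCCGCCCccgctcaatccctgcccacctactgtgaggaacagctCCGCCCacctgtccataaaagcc

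These 6 windows differ in their letters. Col1a2 holds a CCAAT box 109 bases before the start and 2 GC boxes, and Col8a1 holds 4 GC boxes. Col3a1 holds a TATA element, no CCAAT box and no GC box, at a GC content of 35.2% against 62% in Col1a2. The window of Col6a1 holds none of the 3 motifs. Over all collagen windows, 12 of 25 (48%) hold a GC box, against 32.7% of the 32851 windows in the table, 9 of 25 (36%) hold a CCAAT box, against 33.8%, and 6 of 25 (24%) hold a TATA element, against 22.8%. A match is a description of the letters and not a site of binding.

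Of the 8 fibrillar genes, 3 fell, none rose and 5 did not pass, with a median log2 difference of -0.41 and a range from -1.04 to 0.66. Col1a1 (Entrez gene 12842), which encodes the chain present in 2 copies in type I collagen, had signals of 4797, 4936 and 5055 on branching replicates 1 to 3 and 10211, 9125 and 8812 on non-branching replicates 1 to 3. Each non-branching value lay well above each branching value. The fall was 0.93 ± 0.09 log2 units (SE of the fit to 3 arrays a region, adjusted p = 0.00122 in limma), from a mean of 9383 ± 734 to 4929 ± 129 (SD). A second probe set of Col1a1 gave 2224, 2633 and 2246 in branching against 4798, 4950 and 5174 in non-branching, again with no overlap. It fell by 1.07 ± 0.10 (limma adjusted p = 0.00122). Col1a2 (Entrez gene 12843), the partner chain, had signals of 5232, 5425 and 5525 in branching and 11368, 10588 and 11300 in non-branching. These groups did not overlap either, and the SD was 149 in branching and 432 in non-branching. Col1a2 fell by 1.04 ± 0.08 (limma adjusted p = 5.63e-04). The other, dimmer Col1a2 probe set has the suffix r in its name, which is counted here among less specific designs. That label alone does not show that its probes match other transcripts. This dimmer probe set differed by -0.10 and did not pass (limma adjusted p = 0.782). On their brightest probe sets both type I genes kept their calls with any 1 array left out, with limma adjusted p of at most 0.00959.

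Col3a1 (Entrez gene 12825), whose chain forms type III collagen on its own, had signals of 2064, 2539 and 2154 in branching and 3077, 4211 and 3552 in non-branching. The groups did not overlap, but the highest branching value came nearer to the lowest non-branching value than in the type I genes. The fall was 0.68 ± 0.14 log2 units (SE of the fit to 3 arrays a region, adjusted p = 0.0398 in limma). The call was lost in 5 of the 6 omissions of an array, where limma gave an adjusted p of 0.0981 (branching replicate 1 left out), 0.0505 (branching replicate 2), 0.146 (branching replicate 3), 0.133 (non-branching replicate 2) and 0.146 (non-branching replicate 3). With no filter on dim probe sets limma gave 0.118.

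The 2 measured genes of type V collagen, which is known to take part in starting fibrils, had differences of opposite sign. Col5a1 had signals of 1422, 1353 and 1510 in branching and 1858, 2067 and 2071 in non-branching. Its groups did not overlap, and its difference of -0.48 ± 0.11 did not pass (SE of the fit to 3 arrays a region, adjusted p = 0.0647 in limma). Col5a1 passed when the dimmer 50% were dropped (limma adjusted p = 0.0494). A second Col5a1 probe set read 497, 450 and 604 against 907, 729 and 889, also without overlap, with a difference of -0.71 ± 0.18 (limma adjusted p = 0.0937). Col5a2 (Entrez gene 12832) had signals of 2630, 2818 and 3126 in branching and 2221, 2248 and 2486 in non-branching. Here the branching values were the higher ones, without overlap. The difference of 0.30 ± 0.11 did not pass (limma adjusted p = 0.23), and it was the 1 positive difference among collagen genes at an unadjusted p under 0.05.

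The fibrillar genes known from cartilage did not pass. Col2a1, the type II collagen gene, was read by a probe set of a less specific design and gave 243, 266 and 243 in branching and 184, 247 and 207 in non-branching. The groups overlapped, and the log2 difference was 0.25 with a 95% interval from -0.39 to 0.88 (limma adjusted p = 0.758). Col11a1, which encodes a type XI chain, gave 566, 176 and 234 in branching and 300, 401 and 381 in non-branching. Branching replicate 1 was the highest and branching replicate 2 the lowest of the 6 values, and the interval ran from -1.24 to 0.59. Without branching replicate 2 the sign of the Col11a1 difference turned, to 0.02. Col11a2 was below background on all 3 non-branching arrays and on 2 of the 3 branching arrays, and did not pass (limma adjusted p = 0.719).

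All 3 genes of the microfibrillar type VI collagen measured were lower in branching in their means, and 2 passed, with a median log2 difference of -0.97. Col6a1 (Entrez gene 12833) had signals of 1255, 902 and 945 in branching and 1669, 1693 and 1764 in non-branching. The groups did not overlap, and branching replicate 1 was nearest to the non-branching arrays. It fell by 0.74 ± 0.15 log2 units (SE of the fit to 3 arrays a region, adjusted p = 0.0383 in limma). A second, less specific probe set of Col6a1 was below background on all 3 branching arrays, at 12.2, 74.6 and 81.7, and read 285, 235 and 322 in non-branching. It was not called (limma adjusted p = 0.0832), except with a floor of 64 (limma adjusted p = 0.0184). Col6a2 (Entrez gene 12834) had signals of 595, 843 and 659 in branching and 1322, 1373 and 1362 in non-branching. No branching value reached the non-branching range, which spanned little. Col6a2 fell by 0.97 ± 0.16 (limma adjusted p = 0.0161). Col6a3, the third chain, had signals of 464, 268 and 92.1 in branching and 517, 451 and 706 in non-branching. The branching arrays spread widely, with replicate 1 inside the non-branching range. The difference of -1.28 ± 0.51 did not pass (limma adjusted p = 0.287), and it was -0.63 without branching replicate 3.

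Calls of the type VI genes depended on single arrays. With branching replicate 3 left out, limma gave Col6a1 an adjusted p of 0.144 and Col6a2 one of 0.072. Leaving out non-branching replicate 1 gave 0.0888 for Col6a1 and 0.0517 for Col6a2, leaving out non-branching replicate 2 gave 0.122 and 0.0708, and leaving out non-branching replicate 3 gave 0.163 and 0.0796. With branching replicate 2 left out, Col6a1 had an adjusted p of 0.113 in limma, while Col6a2 kept its call. Both genes kept their calls without branching replicate 1. With each array centred on its median, Col6a1 did not pass (limma adjusted p = 0.0612), and with no filter on dim probe sets the values were 0.089 for Col6a1 and 0.0534 for Col6a2.

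Of the 7 FACIT genes 6 were tested. In branching 2 fell and none rose, and 4 did not pass, with a median log2 difference of -0.68. The 3 genes of type IX collagen, known from cartilage fibrils, were lower in branching without overlap, against 11.7% of all genes. Col9a2 (Entrez gene 12840) had signals of 604, 534 and 520 in branching and 895, 1009 and 946 in non-branching. Col9a3 (Entrez gene 12841) had signals of 546, 562 and 776 in branching and 1521, 1133 and 1236 in non-branching. Col9a1 (Entrez gene 12839) had signals of 699, 1209 and 861 in branching and 1885, 1302 and 1618 in non-branching. In each of these genes the 3 branching arrays were the low ones, and for Col9a1 branching replicate 2 came close to non-branching replicate 2. Col9a3 fell by 1.05 ± 0.19 log2 units (SE of the fit to 3 arrays a region, adjusted p = 0.0225 in limma), and Col9a2 fell by 0.78 ± 0.15 (limma adjusted p = 0.0322). Col9a1 differed by -0.82 ± 0.22 and did not pass (limma adjusted p = 0.102). Without branching replicate 2 Col9a1 passed, with a limma adjusted p of 0.0481.

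Each call of a type IX gene was lost in 5 of the 6 omissions. For Col9a2 limma gave an adjusted p of 0.0938 (branching replicate 2 left out), 0.123 (branching replicate 3), 0.0685 (non-branching replicate 1), 0.129 (non-branching replicate 2) and 0.139 (non-branching replicate 3). For Col9a3 it gave 0.0652 (branching replicate 1 left out), 0.0738 (branching replicate 2), 0.076 (non-branching replicate 1), 0.056 (non-branching replicate 2) and 0.0878 (non-branching replicate 3). With no filter on dim probe sets the limma adjusted p of Col9a3 was 0.0789.

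The other FACIT genes showed no change that passed. Col14a1, which encodes a collagen found on the fibrils of soft tissue, had signals of 341, 229 and 272 in branching and 208, 187 and 131 in non-branching. The branching values were the higher ones, without overlap. The log2 difference of 0.69 ± 0.32 did not pass (SE of the fit to 3 arrays a region, adjusted p = 0.373 in limma). Col12a1 had a mean of 144 in branching and 126 in non-branching, both below the background level, and Col19a1 was below background on all 3 branching arrays. Col22a1 was below background on all 6 arrays and was not tested.

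The short-chain gene Col8a1 (Entrez gene 12837) was at background in branching, with signals of 98.5, 58.3 and 131, and above it in non-branching, at 495, 508 and 427. Every non-branching value was more than any branching value. Its change is therefore a lower bound: Col8a1 was at least 3.23-fold lower in branching (limma adjusted p = 0.012). The call was lost with non-branching replicate 1 (adjusted p = 0.055 in limma), 2 (0.0655) or 3 (0.0619) left out, and with no filter on dim probe sets (0.0571). Col10a1, the type X gene known from the growth plate, gave 130, 171 and 155 in branching and 75.5, 170 and 35.2 in non-branching. These values lie around the background level and overlap, and no change passed (limma adjusted p = 0.516).

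**Figure D2:**
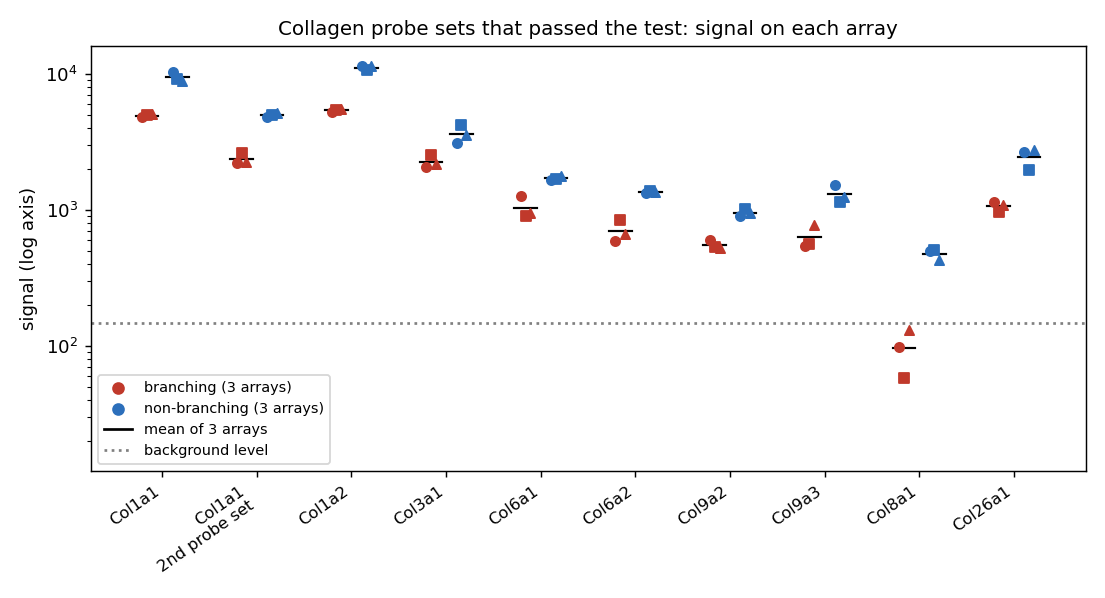
Each point is the signal of 1 array, on a log axis, for the 10 collagen probe sets that passed the test. Circles, squares and triangles are replicates 1, 2 and 3 of each region, bars are means of 3 arrays, and the dotted line is the background level of 147. In all 10 the 3 branching points lie below the 3 non-branching points, and only Col8a1 is under the background level, on its branching arrays.

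None of the 4 basement membrane genes tested passed, with a median log2 difference of -0.07. Col4a1 (Entrez gene 12826) and Col4a2 (Entrez gene 12827) encode the chains of the most widespread type IV network. Col4a1 had signals of 1828, 2293 and 2732 in branching and 2610, 1822 and 2126 in non-branching. Col4a2 had signals of 2820, 2313 and 2303 in branching and 2724, 3130 and 2643 in non-branching. Both genes overlapped between the regions and were far above background on every array. The log2 difference of Col4a1 was 0.06, with a 95% interval from -0.33 to 0.45 (limma adjusted p = 0.92), and its sign turned with branching replicate 3 (-0.08) or non-branching replicate 2 (-0.06) left out. The difference of Col4a2 was -0.19 (interval from -0.47 to 0.07, limma adjusted p = 0.513). Both intervals exclude a fall of 1 on the log2 scale, the size seen in the type I genes. The difference between the type IV and the other classes was not tested.

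Of the remaining type IV genes, Col4a5, which encodes a chain of the network found in kidney and lung, had means (± SD of 3 arrays) of 320 ± 42.9 in branching and 310 ± 60.2 in non-branching, with a log2 difference of 0.05 (interval from -0.52 to 0.63). Col4a4 was below background on all 3 non-branching arrays and on 2 of the 3 branching arrays. Col4a3 was below background on all 6 arrays and was not tested. In the RefSeq promoter table the starts of Col4a1 and Col4a2 lie 21 bases apart on opposite strands of chromosome 8.

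Outside these classes, Col26a1 (Entrez gene 140709), the type XXVI gene, which had been placed in no class, fell. It had signals of 1147, 960 and 1092 in branching and 2649, 1952 and 2756 in non-branching. The lowest non-branching value was above all branching values. The fall was 1.19 ± 0.15 log2 units (SE of the fit to 3 arrays a region, adjusted p = 0.00563 in limma), and it passed with any 1 array left out (adjusted p of at most 0.0384). Together with Col1a1 and Col1a2 it makes 3 of the 9 genes that fell that did so under every omission.

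The multiplexin genes Col15a1 and Col18a1, whose products lie in the basement membrane zone, did not pass. Col15a1 had means (± SD of 3 arrays) of 560 ± 59.3 in branching and 770 ± 203 in non-branching (limma adjusted p = 0.423). Col18a1 had 5 probe sets, all tested, and none passed. Its brightest probe set gave 2490, 2672 and 2195 in branching and 2252, 3218 and 3001 in non-branching, with overlap and a log2 difference of -0.19 ± 0.15 (limma adjusted p = 0.615). Another read 785, 723 and 688 against 996, 1047 and 952, without overlap, with a difference of -0.45 ± 0.14 (limma adjusted p = 0.158). Col7a1, the anchoring fibril gene of stratified epithelia, had a log2 difference of -0.35 (interval from -1.0 to 0.30). Of the transmembrane genes, Col13a1 differed by -0.04 (interval from -0.42 to 0.35) on a less specific probe set, and Col17a1, a gene of hemidesmosomes, had means below background in both regions.

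Probe sets of the same gene did not always give the same answer. Of the 31 genes, 9 had more than 1 probe set and 7 had more than 1 that was tested. The 2 probe sets of Col1a1 fell by 0.93 and 1.07 log2 units, and the 2 of Col5a1 had the same sign. The dimmer Col1a2 probe set gave 3808, 3451 and 4426 in branching and 3660, 4438 and 4376 in non-branching. Its regions overlapped, its log2 difference had an interval from -0.37 to 0.18, and this interval does not meet that of the brighter probe set, from -1.22 to -0.86. Of the 3 probe sets of Col3a1, the other two differed by -0.37 (limma adjusted p = 0.562) and 0.09 (limma adjusted p = 0.921). When the probe sets of a gene were averaged in place of taking the brightest, 8 collagen genes fell. Col6a1 then fell by 1.67 ± 0.28 (limma adjusted p = 0.0205), more than on its brightest probe set. That mean includes the less specific Col6a1 probe set, which was below background on all 3 branching arrays. The size of the averaged fall is therefore uncertain. Col1a2 fell by 0.57 ± 0.09 (limma adjusted p = 0.0137) and Col3a1 differed by -0.32 ± 0.14 and did not pass (limma adjusted p = 0.339).

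**Figure D3:**
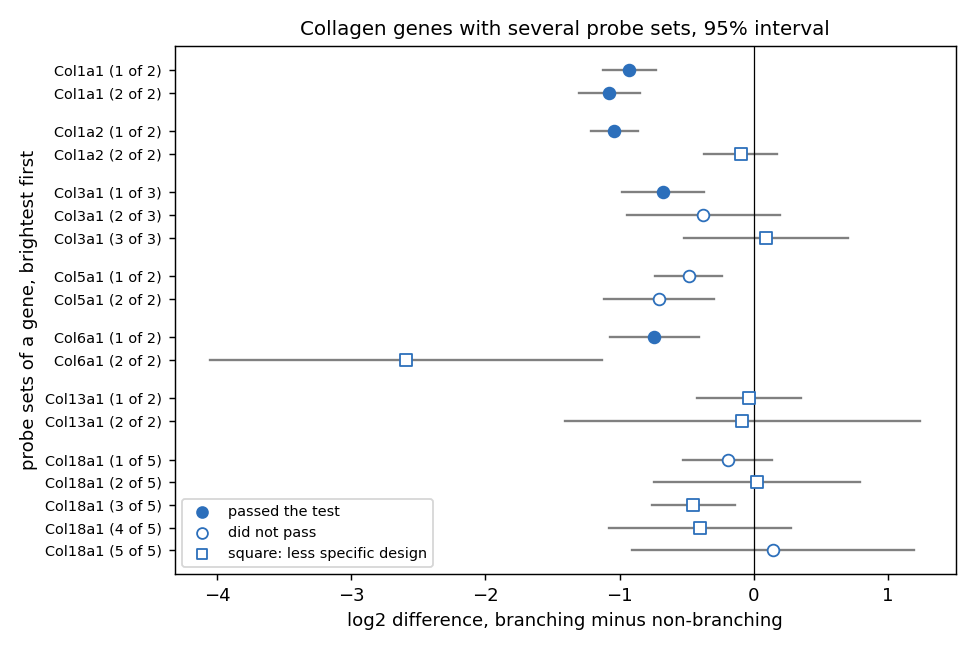
The horizontal axis is the log2 difference, branching minus non-branching, with its 95% interval, for each tested probe set of the 7 collagen genes with more than 1. Rows run from the brightest probe set of a gene to the dimmest, filled symbols passed the test, and squares are less specific designs. The intervals of the 2 Col1a1 probe sets overlap, while those of the 2 Col1a2 probe sets do not.

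Chains that assemble together, or whose genes lie side by side, were compared through the log2 ratio of their signals on each array. The 9 pairs were chosen after the values of their genes were seen. Their ratios restate differences of single genes given above and serve as a description. An exact permutation test over the 6 arrays cannot give a p below 0.1, so it could not decide for any pair. The log2 ratio of Col5a1 to Col5a2 was -0.89, -1.06 and -1.05 on the branching arrays and -0.26, -0.12 and -0.26 on the non-branching arrays. The ratio shifted by -0.78 (branching minus non-branching), without overlap. Col3a1 and Col5a2 are neighbouring genes on chromosome 1, and the ratio of Col3a1 to Col5a2 was -0.35, -0.15 and -0.54 in branching and 0.47, 0.91 and 0.52 in non-branching. This shift of -0.98 was also free of overlap. The ratio of Col1a1 to Col1a2 shifted by 0.11, in the other direction and also without overlap. The other 6 pairs, within types IV, VI and IX and of Col3a1 with Col1a1, overlapped between the regions.

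**Figure D4:**
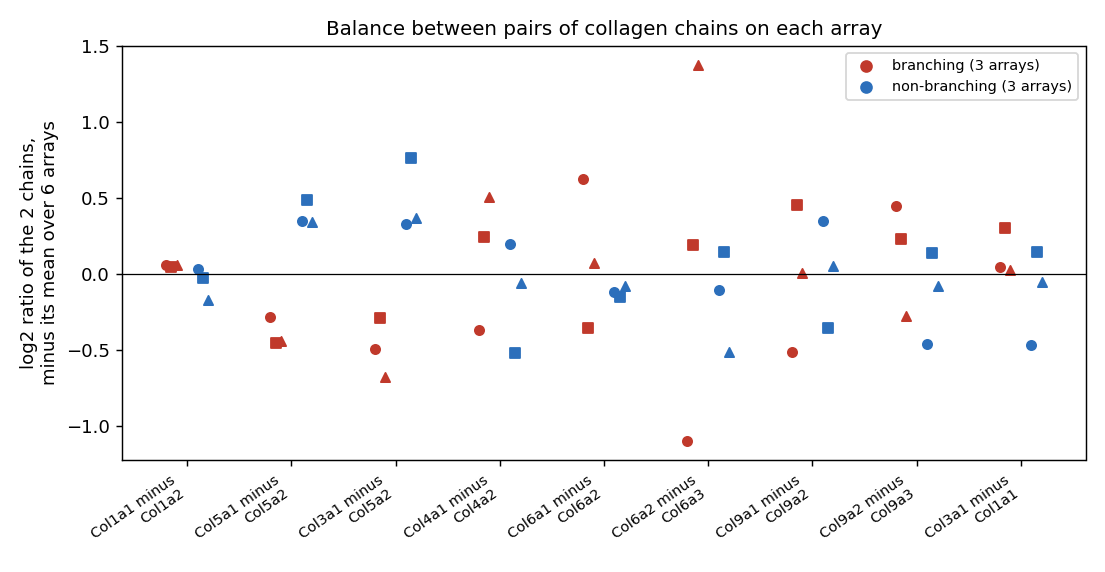
The vertical axis is the log2 ratio of 2 collagen chains on each array minus the mean of that ratio over the 6 arrays, for 9 pairs. Circles, squares and triangles are replicates 1, 2 and 3 of each region. The branching points lie below the non-branching points for Col5a1 with Col5a2 and for Col3a1 with Col5a2. They lie above them, by a small margin, for Col1a1 with Col1a2, while the points of the type IV, VI and IX pairs overlap.

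Genes that act on collagen were taken as 4 lists, whose counts stand against 1.32% lower and 1.0% higher among all genes tested. Of 12 processing enzymes and chaperones tested, 1 was lower and 11 did not pass, with a median log2 difference of -0.12. The 1 that fell was Bmp1, which cleaves the end of fibrillar procollagens, with signals of 1466, 1108 and 1079 in branching and 2214, 2141 and 1904 in non-branching, without overlap (-0.79 ± 0.15, limma adjusted p = 0.0265). Of 4 collagen receptor genes none passed (median -0.22), and the discoidin domain receptor genes Ddr2 (-0.53, limma adjusted p = 0.145) and Ddr1 (-0.33, limma adjusted p = 0.39) had the smallest p. Of 8 genes of fibril-associated proteins 1 fell, the proteoglycan gene Bgn (-0.84 ± 0.15, limma adjusted p = 0.0254), and 7 did not pass (median -0.80). Of 3 tested genes of degrading enzymes 1 fell, Mmp14, a membrane-bound collagenase gene (-0.60 ± 0.09, limma adjusted p = 0.0131), and the other two did not pass (median -0.60).

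Some markers of other cell types also differed between the regions, and the summed signals of some lists did not overlap. Their counts stand against 1.32% lower and 1.0% higher among all genes tested. Of 8 smooth muscle markers, all tested, 5 fell (Acta2, Actg2, Cnn1, Myh11 and Tagln), and Smtn was below background on all arrays. Their sum was 5700 to 6392 in branching and 10912 to 12644 in non-branching, and 4330 to 5010 against 8103 to 8646 without Acta2, the member that moved it most. Of 7 cartilage markers 3 were tested and Matn4 alone fell, while Sox5 and Sox6 did not pass and Acan, Hapln1, Matn1 and Matn3 were below background on all 6 arrays. The cartilage sum was 955 to 1086 against 1991 to 2413, and 291 to 420 against 426 to 620 without Matn4. Of the 7 genes only Matn4 was above background on all 6 arrays. The sum without it is thus largely made of signals near or below background and does not show a difference in cartilage markers. Of 7 endothelial markers 1 fell, Vwf, and the sum was 1439 to 2116 against 2643 to 2700, or 1370 to 2075 against 2236 to 2372 without it.

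The sums of lung mesenchyme markers and of neural crest and neuronal markers rested on 1 gene each. Of 6 lung mesenchyme markers Tcf21 fell, Hoxa5 rose and 4 did not pass. Among these 4, Foxf1 was higher in branching without overlap (1.42, limma adjusted p = 0.145), against 10.2% of all genes. Pdgfrb was lower without overlap (-0.76, limma adjusted p = 0.107), against 11.7%. The sum of all 6 was 4945 to 5566 in branching and 6626 to 7207 in non-branching. Without Tcf21 it was 3728 to 4246 against 3407 to 4096, with overlap. Of 4 neural crest and neuronal markers tested Sox10 alone fell, and Ret was below background on all arrays. The sum of all 5 was 3939 to 4210 against 4721 to 5158, and overlapped without Sox10, at 3009 to 3439 against 3166 to 3320. Of 5 heart markers tested only Actc1 fell, on a less specific probe set, and Myh6 and Ryr2 were below background on all arrays. The sum of all 7 was 1845 to 1959 against 3028 to 3719. Without Actc1 it was 1111 to 1504 against 1548 to 1713, still without overlap. For the marker sums, an exact permutation test over the 6 arrays cannot give a p below 0.1, so it could not decide for any sum.

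The sum of 9 epithelial markers, 4305 to 4938 in branching and 4213 to 4623 in non-branching, overlapped, and none of 8 tested passed. Among those tested, Cldn6 was higher in branching without overlap (0.62, limma adjusted p = 0.0647), against 10.2% of all genes. Foxa2 was lower without overlap (-0.62, limma adjusted p = 0.0751), against 11.7%. The sum of 4 mesothelial markers was 1676 to 1875 against 1361 to 1609, with none of 3 tested passing and Msln below background on all arrays. Of 5 red blood cell markers 3 rose, Hba-a1, Hba-x and Hbb-y, and the sum was 135955 to 151210 against 87747 to 95262, or 93660 to 102393 against 62733 to 69163 without Hba-x. No marker signal was 0, but a signal below the background level does not show that a gene was expressed. The part of these cell types in the differences of the collagen genes was not tested.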

How the data were processed

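Each of the 6 arrays, 3 for each region, carried 1 sample. The deposited intensity values, linear and 1 for each probe set, were used as they stand. The sources used here do not give how the authors computed or scaled them. Of 12488 probe sets, 66 controls were left out. Values under 16 were set to 16 and log2 was taken, which understates the change of dim genes. Probe sets in the lowest 25% by mean log2 value were dropped. The test on the 9316 that remained was two-sided, by lmFit and eBayes with a variance trend (limma 3.58.1, R 4.3.3), with Benjamini-Hochberg adjustment over all of them. No p was adjusted over the collagen genes alone.

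In the platform annotation 10833 probe sets had 1 gene symbol, 396 several and 1193 none. A gene was represented by its brightest probe set. Names ending in f, r, s, g or i before the last part are counted here as less specific designs. Where all 3 arrays of a region were below background, a called change is given as a lower bound, with each of those arrays raised to the background level. Groups follow the titles. Every collagen gene was named, with values per array for those that passed, those above the filter whose regions did not overlap and the main chains of each class, and up to 4 called members, or the 2 with the smallest p, of each list of related genes. The collagen genes, classes and lists were chosen with earlier results of these data known, and the 9 pairs of chains after their values were seen. The fit was tested on simulated data. Alternatives were a block for the replicate number, other normalizations, filters, floors and variance models, array weights, the mean of a gene's probe sets and leaving out each array. The number of arrays limits the precision.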

Additional observations from a re-analysis of the deposited data

How the results depend on the processing

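No alternative called a collagen gene higher in branching. The counts over all probe sets, 84 higher and 105 lower, were 38 and 62 with no filter on dim probe sets and 5 and 17 without the variance trend, and 16 to 69 and 38 to 98 with 1 array left out. The 10 collagen probe sets (9 genes) that fell became 5 (4) with no filter and 0 (0) without the trend (limma, 15 probe sets at an unadjusted p under 0.05), and 4 to 8 (3 to 7) with 1 array left out. The share of all probe sets lower at that unadjusted p without the trend is not given here. The median of the collagen genes was -0.48 with the dimmer 50% left out, where 23 genes were tested, -0.48 with array weights, and -0.48 to -0.26 with 1 array left out. With the replicate number as a block, 44 probe sets were higher and 70 lower, and 7 collagen probe sets (6 genes) fell, with Col9a3 (limma adjusted p = 0.0585), Col6a1 (0.0904) and Col9a2 (0.104) losing their calls. Deviations of same-numbered samples were close to uncorrelated (-0.015 to 0.013). With 3 arrays a region this cannot show whether the numbers pair the samples, as array noise could hide a pairing. The labels leave it open. Differences that turned sign belonged to probe sets that did not pass. They were Col13a1 with quantile normalization (0.021) and, for its brighter probe set, with centring on the median (0.001), Col12a1 with a floor of 64 (0.12) and a Col18a1 probe set with array weights (-0.033). With 1 array left out such probe sets ran from -0.087 to 0.021 and from -0.51 to 0.34 for Col13a1, -0.86 to 0.65 for Col12a1, -0.35 to 0.34 and -0.001 to 0.32 for Col18a1, -0.035 to 0.21 for Col4a5, -1.44 to 0.26 for Col19a1, -0.82 to 0.023 for Col11a1, -0.079 to 0.32 for a Col3a1 probe set, -0.078 to 0.21 for Col4a1 and -0.36 to 0.21 for Col4a4. The cause of these changes was not tested. Probe sets near the background level of 147 limit what can be said of Col12a1, Col19a1, Col10a1, Col11a2, Col17a1 and Col4a4.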
